A study of Homo sapiens with 4 samples.

Results

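The SLC25 family is the set of carrier proteins that move metabolites across the inner mitochondrial membrane. Its protein-coding genes with a symbol made of SLC25A and digits only were followed in leukemia cells with and without a knockdown of ELOVL5, an elongase of polyunsaturated fatty acids. The rule found 48 such genes among the 64252 gene identifiers of the deposited count table. It uses the symbol alone and leaves out relatives named otherwise, such as the uncoupling proteins UCP1, UCP2 and UCP3, which are given further on. Of the 48 genes, 42 had enough counts to be tested. Of these, 8 (19.0%) differed between the groups, beside 20.4% of all genes tested, and no tested carrier reached a 2-fold difference.

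The inner mitochondrial membrane lets few solutes through by itself, so substrates, nucleotides, cofactors and ions cross it on dedicated transporters. An SLC25 carrier is built from tandem repeats of a pair of membrane-spanning helices around a central substrate site, and it alternates between facing the cytosol and facing the matrix. Most members swap one solute for another. The ADP/ATP carriers send ATP out in return for ADP, the phosphate carrier supplies ATP synthase, the citrate carrier feeds cytosolic acetyl-CoA for fatty acid synthesis, and the carnitine/acylcarnitine carrier brings fatty acids in for oxidation. In proliferating lymphoid cells the carriers for aspartate, glutamate, glycine and folate also link the matrix to nucleotide, haem and one-carbon synthesis.

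RNA was sequenced from J.gamma1 cells, a T-ALL line derived from Jurkat in which phospholipase C gamma 1 is missing, a defect that both groups carry. The labels name a treatment with shNC, a control hairpin, for 2 libraries and with shELOVL5, a hairpin that targets ELOVL5, for the other 2. The deposited column names of all libraries also carry the mark D4, and its meaning is not interpreted here. Only 1 hairpin against ELOVL5 is named, the sources used here do not give its sequence, and every library came from the same cell line. No label states that the replicates of a group were grown as separate cultures, so each p-value below measures the spread between these libraries, which may be technical. In such bulk RNA, a smaller share of cells expressing a gene and less RNA of it per cell cannot be told apart.

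Library totals ran from 16254002 to 17338719 counts, and 3 counts corresponded to 0.172 to 0.187 CPM, the count scaled to library size after TMM normalization and the unit of all levels below. ELOVL5 (GRCh38 chr6:53267398-53349179) had 342 and 353 CPM in the shNC libraries and 71.8 and 70.0 CPM in the shELOVL5 libraries. It was 4.90-fold lower after knockdown, in the direction of the labels. Of 15 T cell and T-ALL markers, 14 were tested, with a summed level of 2432 to 2477 CPM in shNC and 2313 to 2331 CPM in shELOVL5. LMO2 was the marker with too few counts. Of the 14, 3 were higher and 7 lower after knockdown, beside 9.22% and 11.2% of all genes tested. At 10 CPM or more, 29.5% of all genes differed in either direction. TAL1 had a log2 fold change of -0.68 (302 to 189 CPM), GATA3 of -0.45 and LAT of 0.70. The adjusted p of LAT was 0.225 without shNC replicate 1 and 0.136 without shNC replicate 2. Markers of other lineages summed to less, with single genes making up most of a sum. B cell markers summed to 58.1 to 65.0 CPM in shNC and 41.5 to 44.7 CPM in shELOVL5, with 4 of 8 under 1 CPM. CD79A made up most of that, and it fell from 43.5 and 37.2 CPM to 26.6 and 24.8 CPM. Myeloid markers summed to 36.6 to 39.9 CPM in shNC and 24.8 to 26.3 CPM in shELOVL5, with 4 of 9 at 0 in every library. CEBPA made up nearly all of that sum, and it fell from 35.1 and 36.9 CPM to 23.5 and 22.2 CPM. Erythroid markers summed to 13.1 to 13.2 CPM in shNC and 8.87 to 11.6 CPM in shELOVL5, and HBB, HBG1 and ALAS2 were among those at 0 in all libraries. Epithelial and fibroblast markers summed to 12.6 to 13.1 CPM in shNC and 13.2 to 13.9 CPM in shELOVL5. The part of these marker levels in the carriers' differences was not tested.

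The carriers as a family took a similar share of the RNA in both groups. Their counts made up 0.283% and 0.282% of the shNC libraries and 0.291% and 0.289% of the shELOVL5 libraries. Summed over the 48 genes the level was 2871 and 2855 CPM in shNC and 2889 and 2855 CPM in shELOVL5, so the groups overlapped. In the fit across all genes (edgeR's quasi-likelihood test with Benjamini-Hochberg adjustment, threshold 0.05), 8 of 42 carriers passed, or 19.0%, beside 20.4% of all 17461 genes tested. The 8 split evenly. The 4 higher in shELOVL5 were SLC25A32, SLC25A35, SLC25A22 and SLC25A3, or 9.52% of the carriers beside 9.22% of all genes. The 4 lower were SLC25A42, SLC25A38, SLC25A29 and SLC25A5, again 9.52%, beside 11.2% of all genes. These shares lie near the background, so the counts say nothing particular to the family.

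Most carriers are well expressed, and well-expressed genes pass more often. Where the mean level was 10 CPM or more, 8 of 36 carriers passed (22.2%) beside 29.5% of all genes at that level. The median log2 fold change of the 42 carriers was 0.08, beside 0.01 for all genes tested, with 25 carriers above 0 and 17 below. At 10 CPM or more the median size of the log2 fold change, regardless of sign, was 0.17 for carriers and 0.18 for all genes. Both libraries of one group lay beyond both of the other for 30 of 42 carriers (71.4%), beside 60.1% of all genes. Against a fold of 1.2 rather than against no change (glmTreat), 1 of 42 carriers passed (2.38%), beside 6.01% of all genes, and that carrier was SLC25A32. Without shELOVL5 replicate 1 the fit of all genes called 1 carrier higher and 3 lower, and without shELOVL5 replicate 2 it called 1 higher and 2 lower. With 1 library left out in turn, 9 of the carriers that did not pass changed sign in at least 1 fit, and none of the 8 that passed did.

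**Figure D1:**
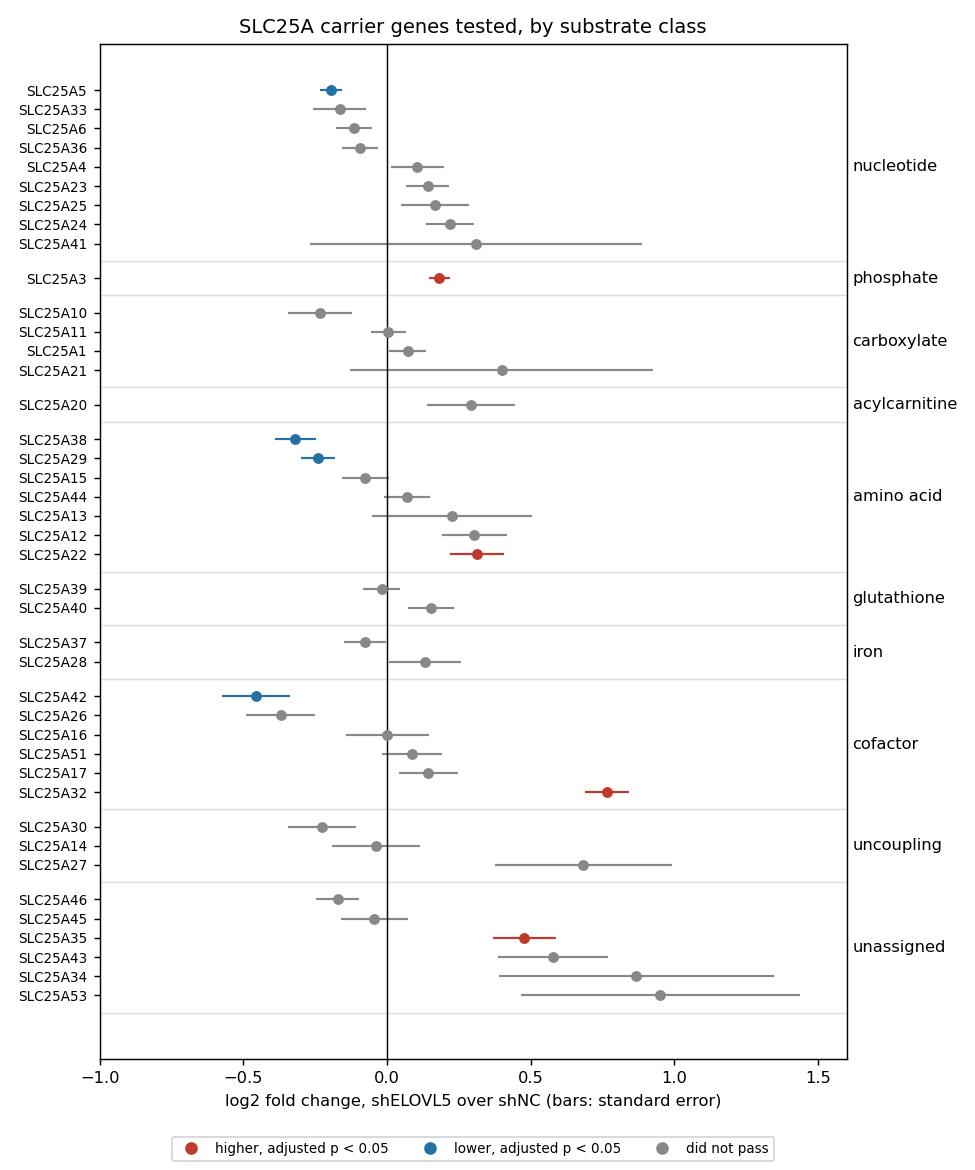
Log2 fold change (shELOVL5 over shNC, horizontal axis) of 41 of the 42 tested SLC25A genes, grouped by substrate class, with standard errors as bars. Red and blue points passed the threshold; SLC25A32 at 0.77 is the passing gene farthest from 0, and passing genes lie on both sides of 0.

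Levels were next compared between carriers per kilobase of transcript, using each gene's median protein-coding transcript length. In shNC the ADP/ATP carrier SLC25A5 came first with 345 CPM per kb and the phosphate carrier SLC25A3 second with 302 CPM per kb. The glutathione carrier SLC25A39 followed with 116 CPM per kb. SLC25A46, an outer membrane member tied to mitochondrial fission, the oxoglutarate carrier SLC25A11 and the citrate carrier SLC25A1 stood at 73.1, 73.0 and 67.6 CPM per kb. The SLC25A46 libraries, at 78.0 and 68.2 CPM per kb, spanned those of SLC25A11, so the order of these neighbours is within their spread. SLC25A29 had 59.6, SLC25A38 had 51.8 and SLC25A6 had 46.3 CPM per kb. Without regard to length, SLC25A5 and SLC25A3 together held 29.7% of the summed carrier CPM in shNC, and they moved in opposite directions after knockdown. In shNC both SLC25A5 libraries (348 and 342 CPM per kb) were above both SLC25A3 libraries (301 and 302 CPM per kb). In shELOVL5 the order turned, with 303 and 300 CPM per kb for SLC25A5 and 339 and 346 CPM per kb for SLC25A3. The order between genes depends on the length used: per kilobase of all annotated exons SLC25A3 ranked 4, SLC25A46 ranked 12 and SLC25A1 ranked 2.

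**Figure D2:**
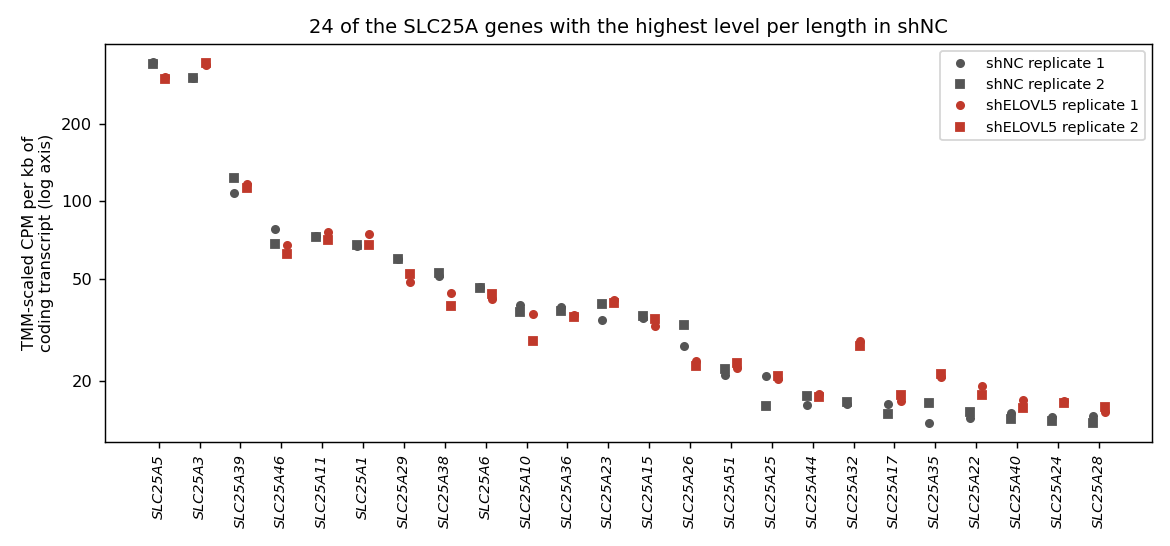
Level of 24 of the SLC25A genes highest in shNC, as TMM-scaled CPM per kb of coding transcript on a log axis, with 1 point per library (grey shNC, red shELOVL5). SLC25A5 and SLC25A3 stand above the rest and exchange places between the groups.

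At the other end, 6 carriers had too few counts to be tested. SLC25A31, the testis-type ADP/ATP carrier, SLC25A2, an ornithine carrier, and SLC25A48 had 0 counts in all 4 libraries, which allows up to 3 counts in each. The glutamate carrier SLC25A18 had 0 and 5 counts in shNC and 10 and 7 in shELOVL5. SLC25A52, a mitochondrial NAD carrier, had 2 and 0 counts in shNC and 2 and 4 in shELOVL5, and SLC25A47 had 2 counts in a single shELOVL5 library. These limits cover counting error only.

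The start regions of the carriers were read from RefSeq promoter windows on GRCh38.p14 for 40 of the 48 genes, in 51 windows, and the 250 bases before each start were searched on both strands for 4 sets of letters. Those windows show which common promoter elements sit beside 6 of the carriers that differed. TATAAA, the TATA box, was in 4 of the 51 carrier windows (7.84%) and in 10.7% of all 35116 windows. CCAAT was in 22 (43.1%) against 32.0% of all windows, and CACGTG, the E-box core bound by MYC and its relatives, in 8 (15.7%) against 6.34%. TGATGNAA, the composite site of ATF4 and C/EBP factors, was in 1 (1.96%) against 3.14%. CACGTG reads the same on both strands and was counted once. Windows of 30 bases around a match are shown for 6 of the carriers that differed, 5′ to 3′ along the gene, with the match in capitals, which read ATTGG where CCAAT lies on the other strand. Distances are to the RefSeq start of the window, which can lie inside the longer GENCODE gene span printed below. It does so for SLC25A5, SLC25A38, SLC25A3, SLC25A22 and SLC25A29.
SLC25A5, TATA box, chrX:119468405-119468434, plus strand, 22 bases before the start: cggctccccctaTATAAAtcggccatttgc
SLC25A38, E-box, chr3:39383314-39383343, plus strand, 39 bases before the start: tcagaacaccctCACGTGacaagcgtccca
SLC25A3, CCAAT, chr12:98593580-98593609, plus strand, 90 bases before the start: cgctcttctccaCCAATgggcgacgcgtac
SLC25A22, CCAAT, chr11:796272-796301, minus strand, 47 bases before the start: cccgccccacggCCAATccctgcggcccct
SLC25A29, CCAAT, chr14:100306583-100306612, minus strand, 152 bases before the start: gcgcacgcccggCCAATgaggcgcggcggc
SLC25A29, CCAAT on the other strand, chr14:100306524-100306553, minus strand, 93 bases before the start: ccgtgcccgcccATTGGcctcactcggcgc
SLC25A42, CCAAT, chr19:19063931-19063960, plus strand, 47 bases before the start: gccagggagcagCCAATcggggcgtggcgt
SLC25A42, CCAAT, chr19:19063844-19063873, plus strand, 134 bases before the start: gccccacctctgCCAATcagcgattggctt
SLC25A42 held 6 CCAAT matches over both strands, and 0.105% of all windows held as many or more. The last window shown for it also overlaps a match on the other strand. SLC25A22 has 4 windows, and 1 match is shown. SLC25A35 is named only, and the windows of SLC25A32 are not reported here, whether or not they hold a match. A match is a run of letters in a window and says nothing about binding.

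The nucleotide carriers supply the matrix with ADP, adenine nucleotides and pyrimidine nucleotides. Of their 10 genes 9 were tested, 1 passed, and that 1 was lower. This and the other class counts below are small and stand beside 20.4% of all genes tested, or 29.5% of those at 10 CPM or more. SLC25A5 (ENSG00000005022, chrX:119468400-119471319), the ADP/ATP carrier of dividing cells also called ANT2, had 444 and 436 CPM in shNC and 386 and 383 CPM in shELOVL5. Both knockdown libraries were below both controls, and the libraries of each group were close together. The means were 440 ± 5.47 and 385 ± 2.65 CPM (SD, n = 2 each). SLC25A5 fell 1.14-fold, a log2 fold change of -0.19 with SE 0.0379 (adjusted p = 0.00498, edgeR). Without shELOVL5 replicate 2 its adjusted p was 0.0505. SLC25A5-AS1, on the opposite strand, shares 227 bases or 15.1% of the SLC25A5 exons and held at most 82 counts in a library.

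The sister ADP/ATP carriers did not pass. SLC25A6, or ANT3, had 96.3 and 94.7 CPM in shNC and 85.9 and 90.4 CPM in shELOVL5, a log2 fold change of -0.12. SLC25A4, the muscle and heart form ANT1, had 53.5 and 48.0 CPM in shNC and 52.2 and 57.0 CPM in shELOVL5, and its groups overlapped. The carriers that exchange ATP-magnesium for phosphate had log2 fold changes above 0 in the fit of all libraries without passing. They were 0.14 for SLC25A23, 0.17 for SLC25A25, 0.22 for SLC25A24 and 0.31 for SLC25A41, the last at about 1 CPM. Without shNC replicate 2 the value was -0.05 for SLC25A41, and without shELOVL5 replicate 1 it was also -0.05. SLC25A24 came nearest, with 49.4 and 47.8 CPM in shNC and 57.3 and 56.0 CPM in shELOVL5 (adjusted p = 0.0911, edgeR). SLC25A25 depended on 1 control library: shNC replicate 1 had 72.6 CPM and shNC replicate 2 had 55.6 CPM, and without replicate 1 the log2 fold change was 0.37 with an adjusted p of 0.0142 (edgeR). Without replicate 2 it was -0.02 with an adjusted p of 0.923. The pyrimidine nucleotide carriers SLC25A33 and SLC25A36 had log2 fold changes of -0.17 and -0.10.

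SLC25A3 (ENSG00000075415, chr12:98593591-98606379), the phosphate carrier, is the other abundant member that differed, and it was higher. It had 409 and 411 CPM in shNC and 461 and 470 CPM in shELOVL5. The groups lay well apart relative to their spread, at 410 ± 0.944 and 465 ± 6.41 CPM (SD, n = 2 each). SLC25A3 rose 1.13-fold, a log2 fold change of 0.18 with SE 0.0374 (adjusted p = 0.00644, edgeR). Leaving out shELOVL5 replicate 1 or 2 gave adjusted p = 0.0506 and 0.0702, with log2 fold changes of 0.19 and 0.17.

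**Figure D3:**
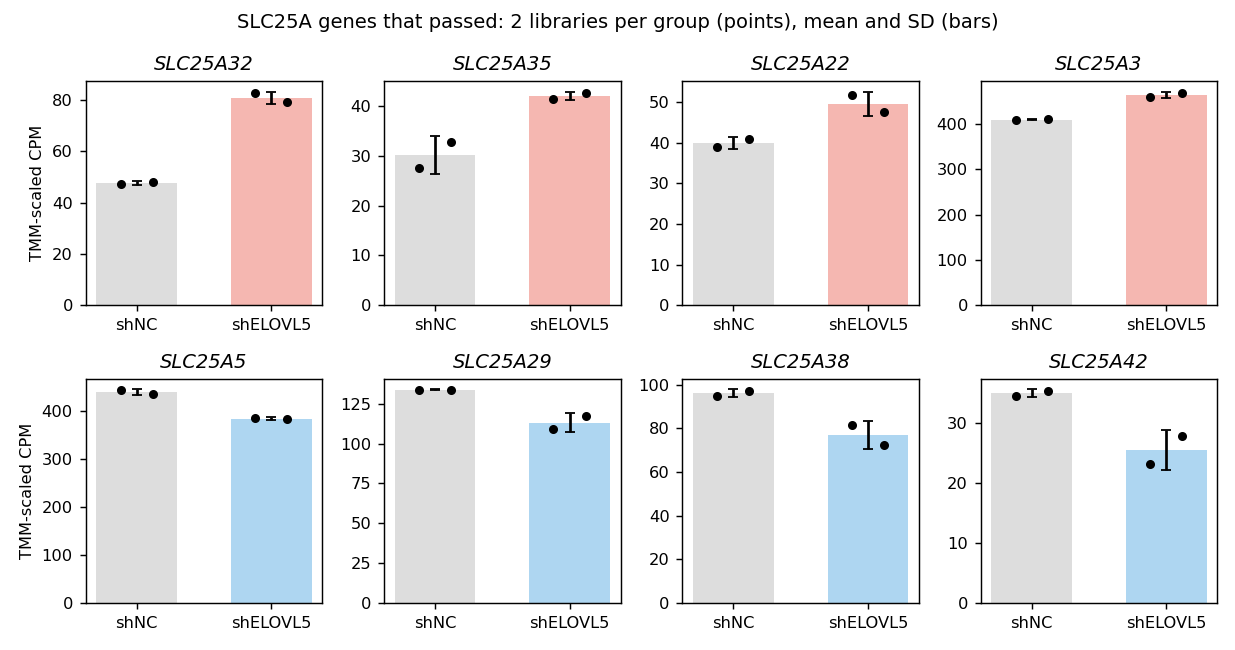
TMM-scaled CPM of the 8 SLC25A genes that passed, with 1 panel per gene. Bars show the mean, error bars the SD over 2 libraries and points the single libraries. The genes shown were picked by the test on these same libraries. In every panel both shELOVL5 points lie on one side of both shNC points, which also held for 60.1% of all genes tested.

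The carboxylate carriers move tricarboxylic acid cycle intermediates, and none of their 4 genes passed. SLC25A1, the citrate carrier that feeds lipid synthesis, had 106 and 107 CPM in shNC and 118 and 107 CPM in shELOVL5, and the groups overlapped. SLC25A11, the oxoglutarate carrier of the malate-aspartate shuttle, had 104 and 104 CPM in shNC and 108 and 101 CPM in shELOVL5. Its log2 fold change was 0.004 with SE 0.0611. SLC25A21, a carrier of oxodicarboxylates, had a log2 fold change of 0.40 at under 2 CPM in every library. It was 1.30 without shNC replicate 1 and -0.15 without shNC replicate 2.

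SLC25A10, the dicarboxylate carrier, shares exon bases with another annotation. It had 75.6 and 71.0 CPM in shNC and 69.8 and 55.0 CPM in shELOVL5, a log2 fold change of -0.23 (adjusted p = 0.183, edgeR). The low library was shELOVL5 replicate 2. In that same library AC139530.2, a gene on the same strand that shares 1221 bases or 46.6% of the SLC25A10 exons and 701 bases with MRPL12, held 254 counts, and it held 0 in the other libraries. Which gene the 254 counts came from was not tested. Added to SLC25A10 in a sum chosen after seeing the data, whose own counts were 1285, 1139, 1219 and 908, the sums were 1285 and 1139 in shNC and 1219 and 1162 in shELOVL5. The summed log2 fold change was -0.07 (adjusted p = 0.587, edgeR). Without shELOVL5 replicate 1, SLC25A10 alone had a log2 fold change of -0.42 with an adjusted p of 0.0305.

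SLC25A20, the carnitine/acylcarnitine carrier that admits fatty acids to beta-oxidation, had 21.7 and 16.8 CPM in shNC and 25.0 and 22.1 CPM in shELOVL5. Both knockdown libraries were above both controls by a small margin. The log2 fold change was 0.29 with SE 0.153, and it did not pass (adjusted p = 0.216, edgeR). Without shNC replicate 1 the log2 fold change was 0.49 (adjusted p = 0.0801) and without shNC replicate 2 it was 0.11 (adjusted p = 0.712).

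Of the 9 amino acid carriers 7 were tested, 1 was higher and 2 were lower, again to be read beside 29.5% of all genes at 10 CPM or more. SLC25A38 (ENSG00000144659, chr3:39383324-39397351) brings glycine into the matrix for haem synthesis, and its loss causes a congenital sideroblastic anaemia. It had 94.9 and 97.4 CPM in shNC and 81.6 and 72.6 CPM in shELOVL5, or 96.1 ± 1.77 against 77.1 ± 6.39 (SD, n = 2 each). Both knockdown libraries were below the controls, and they differed from each other more than the controls did. SLC25A38 fell by 0.32 on the log2 scale with SE 0.0730 (adjusted p = 0.0114, edgeR). Without shELOVL5 replicate 2 the log2 fold change was -0.24 with an adjusted p of 0.117.

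SLC25A29 (ENSG00000197119, chr14:100291111-100306547) carries basic amino acids such as arginine and lysine. It had 134 and 133 CPM in shNC and 109 and 117 CPM in shELOVL5, or 134 ± 0.317 against 113 ± 6.02 (SD, n = 2 each). The controls nearly coincided and both knockdown libraries were below them. AL157871.1, on the opposite strand, shares 693 bases or 9.3% of the SLC25A29 exons and held at most 60 counts in a library. SLC25A29 fell 1.18-fold, a log2 fold change of -0.24 with SE 0.0584 (adjusted p = 0.0151, edgeR). Without shELOVL5 replicate 1 the adjusted p was 0.125.

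SLC25A22 (ENSG00000177542, chr11:790475-798333) imports glutamate together with a proton. It had 38.9 and 40.9 CPM in shNC and 51.7 and 47.5 CPM in shELOVL5, or 39.9 ± 1.48 against 49.6 ± 2.94 (SD, n = 2 each). The knockdown libraries were both higher. PANO1, on the opposite strand, shares 504 bases or 10.8% of the SLC25A22 exons and held at most 167 counts in a library. SLC25A22 rose 1.24-fold, a log2 fold change of 0.31 with SE 0.0932 (adjusted p = 0.0370, edgeR). Its adjusted p was the largest of the 8 carriers that passed. SLC25A22 passed under 4 of the 13 alternative settings, and with no low-count filter the adjusted p was 0.0817 (edgeR). Leaving out any 1 of the 4 libraries gave adjusted p between 0.0666 and 0.256, DESeq2 gave 0.0837 and the replicate block 0.0527.

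The aspartate/glutamate carriers of the malate-aspartate shuttle did not pass. SLC25A12 had 22.8 and 23.6 CPM in shNC and 28.7 and 28.6 CPM in shELOVL5, a log2 fold change of 0.30 (adjusted p = 0.0848, edgeR), although its groups were well separated. SLC25A13 was much lower, with 3.53 and 3.93 CPM in shNC and 4.12 and 4.60 CPM in shELOVL5. The ornithine carrier SLC25A15 and the branched-chain amino acid carrier SLC25A44 had log2 fold changes of -0.08 and 0.07.

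The iron carriers were nearly level. SLC25A37, mitoferrin 1, had 66.5 and 68.5 CPM in shNC and 64.0 and 64.2 CPM in shELOVL5, a log2 fold change of -0.08 with SE 0.0733. SLC25A28, mitoferrin 2, had 21.2 and 19.9 CPM in shNC and 22.0 and 23.0 CPM in shELOVL5, a log2 fold change of 0.13 with SE 0.126. Mitoferrin 1 is known as the erythroid form and mitoferrin 2 as the form of other tissues. SLC25A39 and SLC25A40, which carry glutathione into the matrix, had log2 fold changes of -0.02 and 0.15. For SLC25A39 the libraries read 167 and 191 CPM in shNC and 180 and 173 CPM in shELOVL5, so the knockdown values lay between the controls.

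Cofactor carriers held the member with the largest difference among those that passed. Of 8 genes 7 were tested, 1 was higher and 1 lower. SLC25A32 (ENSG00000164933, chr8:103398635-103415189), known as the mitochondrial folate carrier and also linked to FAD, had 47.2 and 48.1 CPM in shNC and 82.6 and 79.3 CPM in shELOVL5. No knockdown library came near a control, and the means were 47.7 ± 0.632 and 81.0 ± 2.32 CPM (SD, n = 2 each). SLC25A32 rose 1.70-fold, a log2 fold change of 0.77 with SE 0.0756 (adjusted p = 6.8e-05, edgeR). It passed under all 13 alternative settings, and with any 1 library left out the adjusted p was between 8.8e-05 and 0.00273. DCAF13, on the opposite strand, shares 406 exon bases with it and had 105 and 104 CPM in shNC and 95.0 and 89.8 CPM in shELOVL5. A second annotation on the same strand, AC012213.5, shares 2547 bases or 69.7% of the SLC25A32 exons, and the deposited counts hold no entry for it.

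SLC25A42 (ENSG00000181035, chr19:19063999-19112888), which brings coenzyme A into the matrix, differed the other way. It had 34.6 and 35.5 CPM in shNC and 23.2 and 27.9 CPM in shELOVL5, or 35.0 ± 0.637 against 25.5 ± 3.34 (SD, n = 2 each). Both knockdown libraries were below both controls, with replicate 1 the lower. SLC25A42 fell 1.37-fold, a log2 fold change of -0.46 with SE 0.119 (adjusted p = 0.0213, edgeR). Without shNC replicate 2 the adjusted p was 0.0692, without shELOVL5 replicate 1 it was 0.173, and with no low-count filter it was 0.0723.

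No other cofactor carrier passed. SLC25A16, whose gene has been linked to coenzyme A, had a log2 fold change of 0.001, which was 0.19 without shNC replicate 1 and -0.18 without shNC replicate 2. SLC25A17, a peroxisomal member that carries coenzyme A, FAD and NAD, had 0.14. SLC25A51, the main mitochondrial NAD carrier, had 0.09. SLC25A26 imports S-adenosylmethionine, and it had 30.1 and 36.2 CPM in shNC and 26.2 and 25.1 CPM in shELOVL5, a log2 fold change of -0.37 (adjusted p = 0.0545, edgeR). Without shNC replicate 1 its adjusted p was 0.0228, and without shNC replicate 2 the log2 fold change was -0.24 with an adjusted p of 0.308. SLC25A26 shares 907 bases or 15.5% of its exons with LRIG1 on the opposite strand, which had 35.6 and 34.9 CPM in shNC and 66.0 and 71.0 CPM in shELOVL5. The counts of both genes together had a log2 fold change of 0.46 (adjusted p = 0.00117, edgeR), the opposite sign to SLC25A26 alone. This total takes every LRIG1 count, not only those of the shared bases.

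The members related to uncoupling proteins, which can let protons back across the membrane, gave no call. SLC25A14, also named UCP5, had a log2 fold change of -0.04 and SLC25A30 had -0.23, with 30.7 and 33.0 CPM in shNC against 24.9 and 29.5 CPM in shELOVL5. SLC25A27, also named UCP4, was at 2.35 and 2.37 CPM in shNC and 3.72 and 3.87 CPM in shELOVL5. Its log2 fold change of 0.68 carried an SE of 0.308 and did not pass (adjusted p = 0.152, edgeR).

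A further 8 members were placed in no substrate class, of which 6 were tested and 1 passed. SLC25A35 (ENSG00000125434, chr17:8287763-8295343) had 27.6 and 32.8 CPM in shNC and 41.4 and 42.7 CPM in shELOVL5, or 30.2 ± 3.74 against 42.05 ± 0.875 (SD, n = 2 each). SLC25A35 rose 1.39-fold, a log2 fold change of 0.48 with SE 0.111 (adjusted p = 0.0123, edgeR). It passed under 8 of the 13 alternative settings, and did not pass with no low-count filter. Without shNC replicate 1 the adjusted p was 0.0749, and without shELOVL5 replicate 1 or 2 it was 0.0733 and 0.0843. RANGRF, a gene on the opposite strand, shares 1293 bases or 33.2% of the SLC25A35 exons, and it fell from 68.3 and 66.6 CPM in shNC to 39.0 and 39.8 CPM in shELOVL5. Since it is not given whether counting used strand, reads of the shared bases cannot be assigned to either gene. SLC25A35 counts were 468 and 527 in shNC and 724 and 705 in shELOVL5, and those of both genes together were 1628 and 1595 against 1405 and 1363. The sum had a log2 fold change of -0.26 (adjusted p = 0.0145, edgeR), the opposite sign to SLC25A35 alone. It takes every RANGRF count, not only those of the shared bases.

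**Figure D4:**
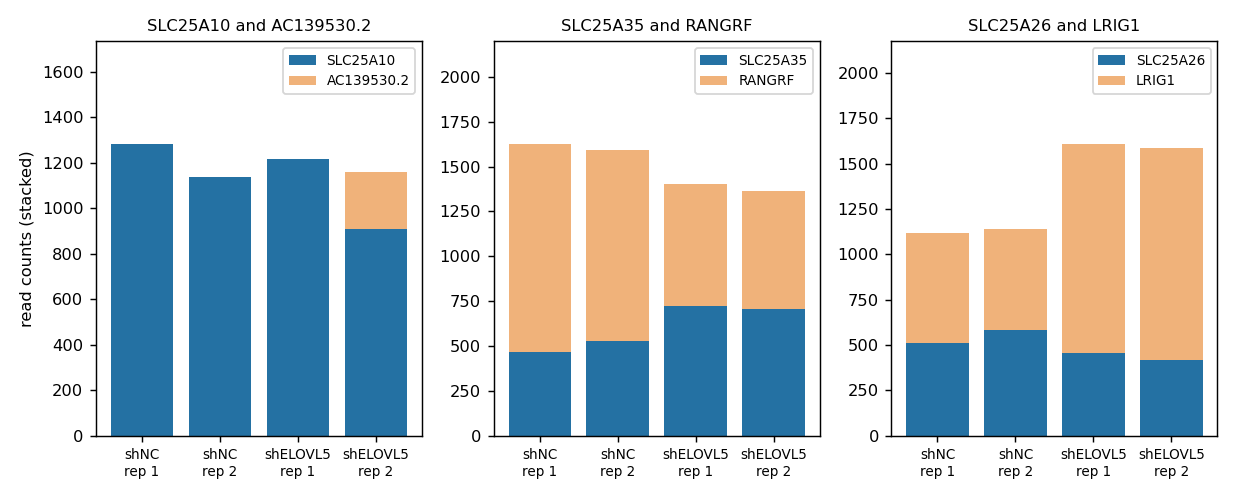
Read counts per library of SLC25A10, SLC25A35 and SLC25A26 (blue) stacked with those of an overlapping gene (orange). AC139530.2 has counts in 1 library only, the 254 of shELOVL5 replicate 2, while RANGRF and LRIG1 move opposite to the carrier they overlap.

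Among the other unassigned members, SLC25A43 had 8.83 and 10.2 CPM in shNC and 15.5 and 12.8 CPM in shELOVL5, a log2 fold change of 0.58 (adjusted p = 0.0566, edgeR). With scaling by total counts only, its adjusted p was 0.0450. SLC25A46 had 125 and 109 CPM in shNC and 108 and 99.6 CPM in shELOVL5, a log2 fold change of -0.17, with an adjusted p of 0.143, and of 0.0299 without shNC replicate 2. Without shNC replicate 1 it was -0.07 with an adjusted p of 0.594. SLC25A45 had a log2 fold change of -0.04. The larger values of 0.87 for SLC25A34 and 0.95 for SLC25A53 came from genes with at most 4.12 CPM in a library. SLC25A34 had 27 and 24 counts in shNC and 27 and 68 in shELOVL5, so only shELOVL5 replicate 2 stood apart, and without it the log2 fold change was 0.0009. SLC25A53 had an adjusted p of 0.207, and of 0.0335 without shNC replicate 1, which had 1.94 CPM against 0.685 CPM in the other control.

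Genes that work beside the carriers were taken from lists of related functions, and their calls went in both directions. The lists are short, and their counts stand beside 20.4% of all genes tested. Of 5 relatives of the family with other names, 1 was higher and 2 were lower. UCP2, the widely expressed uncoupling protein, fell from 136 and 148 CPM in shNC to 128 and 114 CPM in shELOVL5 (log2 fold change -0.23, adjusted p = 0.0379, edgeR). Without shNC replicate 2 its adjusted p was 0.168 and without shELOVL5 replicate 2 it was 0.276. UCP1, the brown fat uncoupling protein, had 18 and 29 counts in shNC and 0 and 4 in shELOVL5, under 2 CPM in every library, and it passed as lower (adjusted p = 0.0234, edgeR). Without shNC replicate 2 the adjusted p was 0.156, and without shELOVL5 replicate 1 it was 0.126. MTCH2, a carrier-like insertase of the outer membrane, rose from 91.2 and 92.4 CPM to 104 and 105 CPM. With any 1 library left out its adjusted p was between 0.108 and 0.216. UCP3 and MTCH1 did not pass.

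Of 17 other inner membrane transporters of metabolites and ions, 2 were higher and 3 lower. MPC2, a subunit of the mitochondrial pyruvate carrier, rose by a log2 fold change of 0.29, while its partner MPC1 had 0.11 and did not pass. SFXN1, which carries serine for one-carbon synthesis, had a log2 fold change of -0.24, and SFXN3 of the same family had -0.47. Both passed as lower. LETM1, an inner membrane protein of ion exchange, passed as higher at 0.16, and with any 1 library left out its adjusted p was between 0.0594 and 0.380. Without shELOVL5 replicate 2 the adjusted p was 0.0514 for MPC2 and 0.0594 for SFXN3. Without shELOVL5 replicate 1 it was 0.0799 for SFXN1 and 0.0802 for SFXN3, and without shNC replicate 2 it was 0.0618 for SFXN3. Of the 3 outer membrane channels, through which the carriers' substrates first pass, VDAC1 rose from 133 and 125 CPM to 161 and 175 CPM and VDAC3 fell from 128 and 130 CPM to 112 and 108 CPM. VDAC2 had a log2 fold change of -0.03. The VDAC3 call gave an adjusted p of 0.118 without shELOVL5 replicate 2, while VDAC1 passed with any 1 library left out.

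Carrier proteins reach the inner membrane through the TOM complex, the small TIM chaperones and the TIM22 complex, and of 13 genes of this route 1 passed. TIMM8B, a small TIM chaperone, rose from 33.2 and 27.04 CPM to 45.9 and 45.0 CPM (log2 fold change 0.59, adjusted p = 0.0045, edgeR). TOMM70, the receptor that recognises carriers, had a log2 fold change of -0.21 (adjusted p = 0.0529, edgeR). Among the 4 malate-aspartate shuttle enzymes, GOT2, the mitochondrial aspartate aminotransferase, fell from 155 and 171 CPM to 143 and 142 CPM, and GOT1, MDH1 and MDH2 did not pass. GOT2 had an adjusted p of 0.197 without shNC replicate 2, 0.139 without shELOVL5 replicate 1 and 0.169 without shELOVL5 replicate 2. The 14 genes of iron-sulfur cluster and haem synthesis use the iron and glycine that carriers import. Of these, 4 were higher and 1 lower, beside 9.22% and 11.2% of all genes. At 10 CPM or more, where most of the 14 lie, 29.5% of all genes passed in either direction. The higher genes were BOLA3, CPOX, GLRX5 and HSPA9 at log2 fold changes of 0.73, 0.35, 0.29 and 0.15, and the lower one was LYRM4 at -0.48. LYRM4 missed the threshold with any 1 library left out (adjusted p 0.0911 to 0.157). Without shELOVL5 replicate 2 the adjusted p was 0.206 for BOLA3, 0.142 for CPOX and 0.0837 for HSPA9, and without shELOVL5 replicate 1 it was 0.0702 for GLRX5, 0.0518 for CPOX and 0.258 for HSPA9. Without shNC replicate 2 it was 0.126 for BOLA3 and 0.139 for HSPA9, and without shNC replicate 1 it was 0.0548 for CPOX.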

How the data were processed

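The authors deposited raw read counts as whole numbers for each gene in 2 shNC and 2 shELOVL5 libraries of J.gamma1 cells, assigned to groups by their titles. The submitters' processing notes list HISAT2 2.2.0, StringTie and build hg38. The annotation, counting step and strand setting were not given in the sources used here, so overlapping and antisense genes are uncertain.

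From the deposited counts, genes were filtered (filterByExpr, minimum count 10), scaled by TMM and fitted with edgeR 4.0.16 in R 4.3.3 (glmQLFit with robust=TRUE, glmQLFTest, two-sided, no term but group). P-values were adjusted by Benjamini-Hochberg over the 17461 genes tested, and the script was tested on simulated data. A table of gene names gave symbols and matched 56105 identifiers. Gene places, exon overlaps and transcript lengths came from GENCODE release 29 on GRCh38, and start regions from RefSeq. Counts per library and full statistics are given for carriers that passed, and class values for the rest. Of each related list, at most 4 genes that passed are named, taken from those with the smallest p. Outside this rule fall LAT, LETM1, LYRM4 and list members that did not pass. These names were picked once their values had been seen. LAT had the largest p of the T cell markers that passed. The carriers, their substrate classes and the related lists were chosen with earlier results of these data known. Substrate classes follow general knowledge of the family.

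Alternatives were RLE factors, total counts only, no low-count filter, at least 1 CPM in 2 libraries, DESeq2 1.42.0, limma-voom (limma 3.58.1), robust=FALSE, a replicate block, glmTreat against a fold of 1.2 and leaving out each library. Sums with overlapping genes were added after seeing the data. The values of 1 tested carrier and of some genes of the related lists are not reported here, though the counts include them.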

Additional observations from a re-analysis of the deposited data

How the results depend on the processing

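Under the 13 alternatives, the 8 carriers that passed gave 104 values, all with the same sign as reported, and 77 of them passed. The other 34 tested carriers gave 442 values, of which 6 passed. The 4 higher calls became 2 with no low-count filter, 1 against a fold of 1.2 (glmTreat) and 1 to 4 with 1 library left out. The 4 lower calls became 3 with no low-count filter, 0 against a fold of 1.2 and 2 to 5 with 1 library left out. With the replicate number as a block there were 3 higher and 4 lower calls. The labels do not pair the libraries, and across genes the deviations of same-numbered libraries from their group means correlated at -0.01. The sum of all SLC25A35 and RANGRF counts had a log2 fold change of -0.26, beside 0.48 for SLC25A35 alone. That of SLC25A26 and LRIG1 had 0.46, beside -0.37 for SLC25A26 alone. Both sums were chosen after seeing the data, and the sign turned because the partner moves the other way by more counts. They take every count of the partner, although 33.2% and 15.5% of the carriers' exon bases are shared. The part of shared reads in the carriers' own values was therefore not tested. Over all genes the calls, 1610 higher and 1952 lower as reported, were 899 and 1344 with no filter, 408 and 641 against a fold of 1.2, 1190 and 1609 by DESeq2, 696 and 1176 without shELOVL5 replicate 1, and 795 and 1178 without shELOVL5 replicate 2. No scaling moved the median log2 fold change of all genes by more than 0.04. With 2 libraries per group, leaving one out leaves an arm of 1 library, which is assumed to vary like the others. Depth limits the 6 tested carriers with a mean under 10 CPM, whose standard errors lay between 0.279 and 0.578 (log2), while the largest among the other carriers was 0.191.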

Other observations

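The table also held 43 pseudogenes named after SLC25A members. Together they had 297 counts over the 4 libraries, beside 192244 for the 48 carriers, so few reads were assigned to the copies. The sources used here do not say how reads that match both a carrier and a copy were counted. The X chromosome carries 5 of the carrier genes, SLC25A5, SLC25A6, SLC25A14, SLC25A43 and SLC25A53, of which SLC25A6 lies in the pseudoautosomal region.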
